A study of Mus musculus with 6 samples.

Results

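The genes described here are those whose listed symbol begins with Mmp, Adam, Adamts, Adamtsl or Timp followed by a digit: matrix metalloproteinases, the related ADAM and ADAMTS enzymes, ADAMTS-like proteins and tissue inhibitors of metalloproteinases (TIMPs). They number 36 of the 13405 genes listed, with 12 MMP, 11 ADAM, 11 ADAMTS or ADAMTSL and 2 TIMP genes. RNA was sequenced from 4T1 cells in culture, a mouse mammary carcinoma line from a BALB/c mouse, in 3 libraries of cells that received a control vector and 3 of cells in which Atm was knocked out (ATM KO). Both groups are the same line and strain and no drug or dose is named. How Atm was disrupted, and whether a group is 1 clone, a pool or separate cultures, is not stated in the labels. The p-values therefore reflect only how far these libraries differ, and that may be technical.

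Metalloproteinases cleave proteins with a zinc ion in the active site. MMPs cut collagens, laminins and other matrix proteins, and are secreted or anchored in the membrane. ADAMs shed the outer parts of membrane proteins such as Notch receptors and EGF receptor ligands, and ADAMTS enzymes cut proteoglycans and process procollagen and fibrillin. TIMPs bind the active site and block it. In mammary carcinoma these proteins are studied for invasion through basement membrane and for release of growth factors. Most are made as inactive precursors, so the mRNA level is not the enzyme activity.

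The MMP genes Mmp13, Mmp1b, Mmp3, Mmp1a and Mmp10 lie on chromosome 9 between 7272514 and 7510240 (GRCm38), within the MMP cluster that holds collagenase and stromelysin genes. Their promoters are shown because this position and these letters were not used to choose the genes. Each line is the stretch of 110 bases that ends just before the RefSeq transcription start (RefSeq on GRCm38.p6), 5′ to 3′ on the gene's strand, with capitals for the AP-1 motif TGANTCA and for TATAAA.
Mmp13, chr9:7272404-7272513, plus strand: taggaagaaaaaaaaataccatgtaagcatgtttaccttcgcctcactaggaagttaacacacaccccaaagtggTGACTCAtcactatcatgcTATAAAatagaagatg
Mmp1b, chr9:7388027-7388136, minus strand: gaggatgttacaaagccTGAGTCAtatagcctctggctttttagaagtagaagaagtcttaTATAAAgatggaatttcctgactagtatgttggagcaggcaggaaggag
Mmp3, chr9:7445712-7445821, plus strand: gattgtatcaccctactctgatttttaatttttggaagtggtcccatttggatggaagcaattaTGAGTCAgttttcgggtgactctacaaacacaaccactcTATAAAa
Mmp1a, chr9:7464031-7464140, plus strand: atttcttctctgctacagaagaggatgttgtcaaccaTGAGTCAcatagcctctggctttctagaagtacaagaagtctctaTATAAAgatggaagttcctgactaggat
Mmp10, chr9:7502232-7502341, plus strand: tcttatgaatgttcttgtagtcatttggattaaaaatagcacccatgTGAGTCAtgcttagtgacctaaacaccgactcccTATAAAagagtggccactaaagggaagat
Mmp14, chr14:54431488-54431597, plus strand, which has neither motif: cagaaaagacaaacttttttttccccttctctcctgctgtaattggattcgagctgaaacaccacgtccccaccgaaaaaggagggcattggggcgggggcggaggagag

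AP-1 is the dimer of Fos and Jun proteins, and TATAAA is the core of the TATA box. Both motifs were searched on both strands of windows from 250 bases before to 50 after each start. The RefSeq table held windows for 25 of the 36 genes. Mmp9, Mmp19, Adam3, Adam9, Adam11, Adam12, Adamts4, Adamts6, Adamts7, Adamts8 and Adamts10 had no window and were not searched. All 5 cluster genes had 1 AP-1 motif and 1 TATAAA, the AP-1 motif beginning 35 (Mmp13), 46 (Mmp3), 63 (Mmp10), 73 (Mmp1a) and 93 (Mmp1b) bases before the start. TATAAA began at unlike distances, 7 (Mmp3), 16 (Mmp13), 28 (Mmp1a), 29 (Mmp10) and 49 (Mmp1b) bases before the RefSeq start. Of the other 20 matched genes, 1 had the AP-1 motif (Adam19, 131 bases before 1 of its starts) and 1 had TATAAA (Adamts1). Over all 32851 windows in the table, 7.81% held the AP-1 motif, 13.6% TATAAA and 1.54% both. The cluster windows were 37.7% to 43.7% G and C, against a median of 66% for the other members' windows and 52.7% for all windows. These matches describe letters only and were not tested as binding sites.

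Values below are normalized read counts, which read as gene counts that were scaled by 1 factor per library before deposit. Between 22494919 and 32341508 reads per library stood behind them. The mRNA of Atm was no lower in the libraries labelled ATM KO, at 1959, 2220 and 1591 against 1978, 1613 and 1519 in vector controls 1 to 3. Gene-level counts do not show a small deletion, so this does not check the labels. Vector control 1 stood apart: across the tested genes its log2 values correlated at 0.914 with both other controls, which correlated at 0.997 with each other, and at 0.965 with ATM KO 2. Epithelial markers were high, with Cdh1 between 16607 and 18627 and Krt18 between 22139 and 44957 in the 6 libraries, while Krt5 was at 0 in all. Of the markers of other cells, 4 of 9 fibroblast, 3 of 10 leukocyte and 1 of 6 endothelial genes were listed. The fibroblast markers summed to between 186 and 734 in the controls, against 393 and 1088 in ATM KO cells, the leukocyte markers to between 943 and 1922 and between 1152 and 2667. Csf1r, a macrophage receptor gene among them, was above the controls in all ATM KO libraries (log2 1.27), while Cd68 was not (log2 -0.92). Cdh5, the endothelial marker listed, was at most 11.7. All 7 tested epithelial markers had positive fold changes (median 0.36), from 0.03 for Cdh1 to 2.23 for Krt14. The part of other cells in the results was not tested, and in bulk RNA more cells making a transcript cannot be told apart from more transcript per cell.

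Of the 36 genes, 32 had a mean value of at least 10 and were tested with the 12149 genes that met this minimum. Mmp23, Adam1a, Adam3 and Adamts9 fell below it, with a highest single value of 20.2 (Adam3 in ATM KO 2). None of the members (0 of 32) passed limma at an adjusted p of 0.05, where 0% of all tested genes passed. By edgeR 0 of 32 passed, against 0% of all genes. DESeq2 also called 0 of 32 members, against 0.692% of all genes. The smallest adjusted p among the members was 0.999 by limma and 0.127 by DESeq2, the latter for Mmp15. Log2 fold changes, taken as ATM KO less control after adding 1 to each value, were positive in 23 members and negative in 9, with a median of 0.26 beside -0.01 over all tested genes. An absolute log2 fold change above 1 was met in 9 of the 32 members (28.1%) and in 4.58% of all tested genes. The members also varied more between libraries of the same group, with a median within-group SD of 0.72 on the log2 scale against 0.37 over all tested genes.

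**Figure D1:**
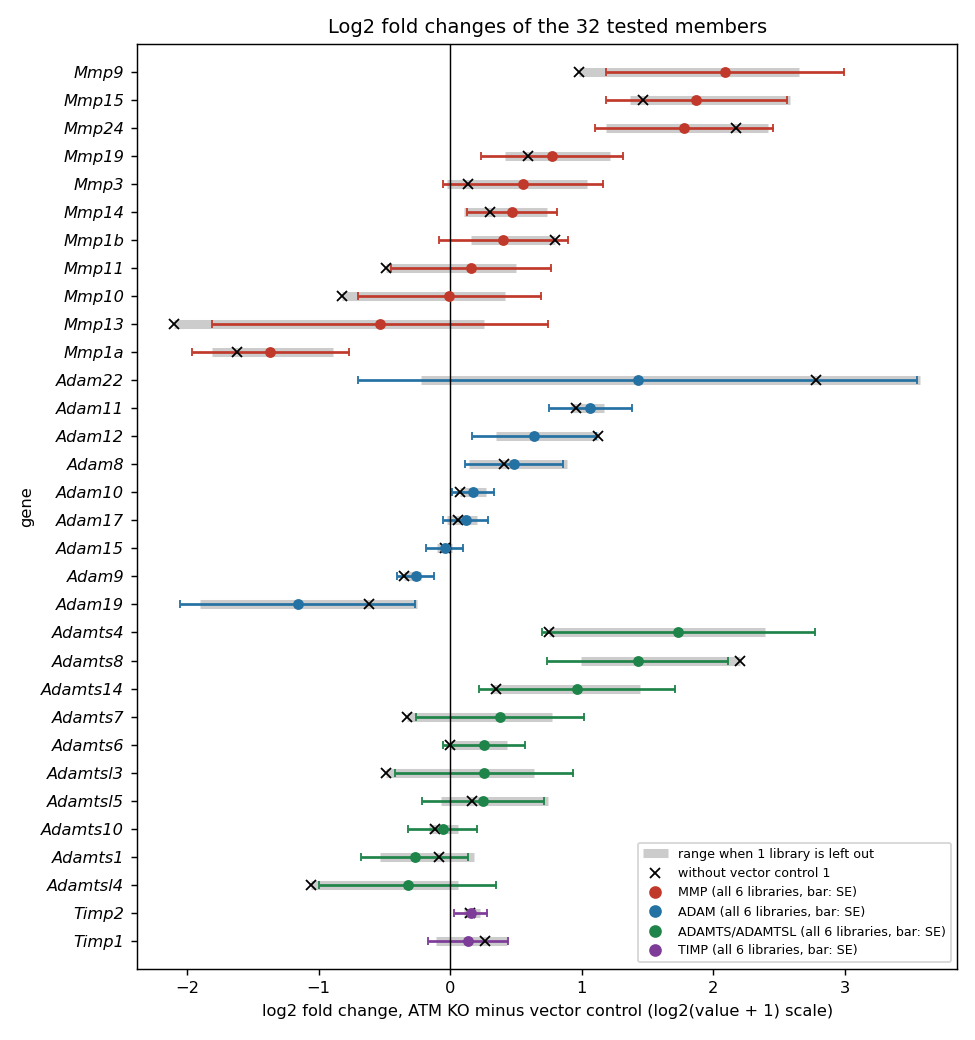
Log2 fold change of each tested member on the x axis (ATM KO less control, 1 added to each value), genes on the y axis grouped by family. Points are fits to all 6 libraries with SE bars, grey bands span the fits with 1 library left out and crosses are the fit without vector control 1. Mmp9 has the highest point at 2.09 and Mmp1a the lowest at -1.37, and the cross of Mmp13 lies at -2.10, far from its point at -0.53.

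An unadjusted p under 0.05 by limma was found for 3 of 32 members, Adam11, Mmp15 and Mmp24, while 4.16% of all tested genes had one. Mmp15 and Mmp24 are described for this reason, which was seen in the data. In 3 members all ATM KO values exceeded all control values (Mmp9, Adam11 and Timp2), a pattern found in 5.7% of all tested genes. Adam9 was the 1 member with every ATM KO library below every control, as were 5.48% of all tested genes. Together these 4 are 12.5% of the members, near the 11.2% of all tested genes. The direction of the fold change held whichever library was left out in 17 of 32 members (53.1%) and in 46.8% of all tested genes.

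Averaged over the libraries, Mmp9 was the most abundant MMP mRNA per length. It encodes gelatinase B, which cuts gelatin and type IV collagen of basement membrane (chromosome 2, 164940780 to 164955850). Mmp9 stood at 1042, 10569 and 10622 in vector controls 1 to 3, against 19326, 16878 and 27739 in ATM KO libraries 1 to 3. All ATM KO libraries were above all controls, and vector control 1 was 10.2 times below the mean of the other controls. The group means were 7411 ± 5516 and 21314 ± 5697 (SD, n = 3 each), a ratio of 2.88. The log2 fold change was 2.09 (SE 0.90, limma adjusted p = 0.999, DESeq2 adjusted p = 0.75), and 0.98 without vector control 1. With all 6 libraries, DESeq2 and edgeR gave smaller log2 fold changes for Mmp9, 1.53 and 1.52. Per kilobase of exon, Mmp9 stood at 2094 ± 1559 in control against 6023 ± 1610 in knockout cells, the latter above every other member. Its mean level per kilobase was at the 98.7th percentile of the listed genes.

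Membrane-anchored MMPs were led by Mmp14, which encodes MT1-MMP, the collagenase on the cell surface that also activates pro-MMP2. Mmp14 stood at 3680, 5246 and 5172 in the controls, against 5659, 4417 and 10543 with Atm knocked out. The groups overlapped, and the ATM KO mean rests on ATM KO 3: the log2 fold change was 0.47 (SE 0.34), and 0.11 without that library. Mmp15, which encodes the related MT2-MMP, stood at 77.8, 189 and 172 in the controls, against 670, 186 and 1008 with Atm knocked out. ATM KO 2 lay within the control values, while ATM KO 1 and 3 were above them all. Its means were 146 ± 59.8 and 621 ± 414, with a log2 fold change of 1.87 (SE 0.69), 1.37 without ATM KO 3 and 2.58 without ATM KO 2. Mmp24, which encodes MT5-MMP, stood at 156, 66.7 and 69.3 in the controls, against 327, 711 and 128 with Atm knocked out. Here ATM KO 3 was the library inside the control range. The log2 fold change was 1.78 (SE 0.68), and 1.18 without ATM KO 2. Mmp24 shares 13.6% of its exon bases with BC029722 on the opposite strand, and whether the counting used strand is not stated. Mmp15 and Mmp24 thus had fold changes of like size. ATM KO 1 was above all controls for both genes. The other high library differed, ATM KO 3 for Mmp15 and ATM KO 2 for Mmp24.

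**Figure D2:**
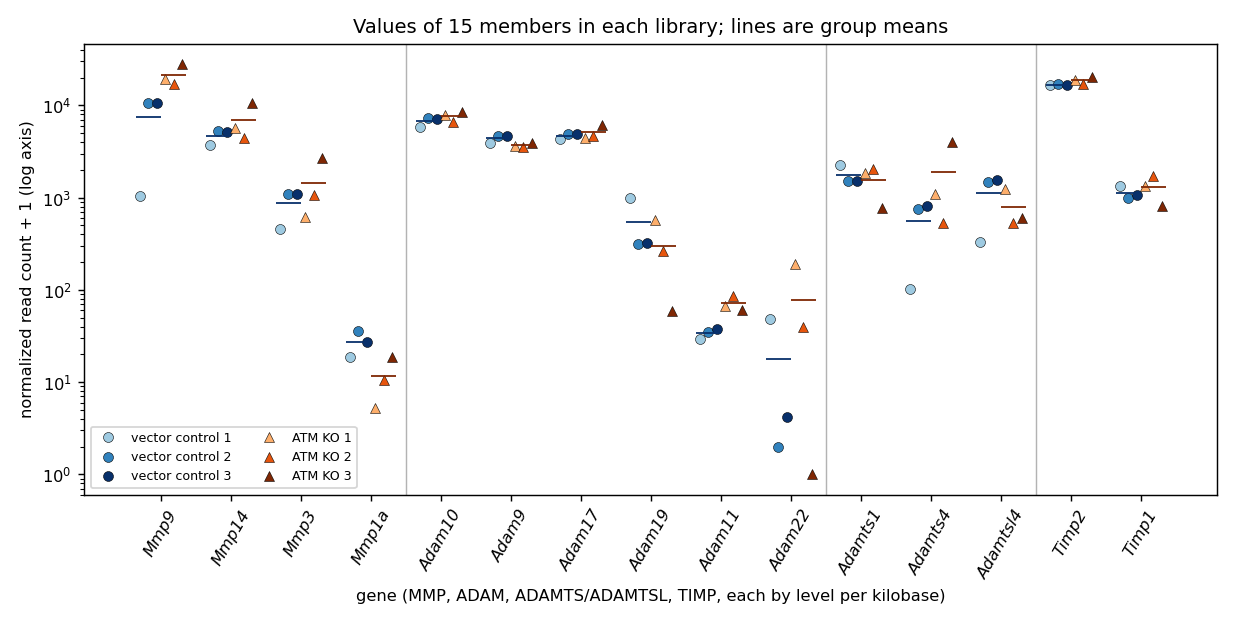
Normalized read count plus 1 on a log y axis for 15 members on the x axis, each of the 6 libraries as a point (circles vector control, triangles ATM KO) with lines at the group means. Mmp9 lies at 1042 in vector control 1 and at 16878 or more in ATM KO cells, while Timp2 keeps within 16624 to 20137 in all 6 libraries.

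The cluster genes on chromosome 9, whose promoters are printed above, did not share 1 direction. Mmp13, which encodes collagenase-3, stood at 45.7, 1197 and 1219 in the controls, against 234, 213 and 444 with Atm knocked out. Every ATM KO library lay between vector control 1 and the other controls. Its log2 fold change was -0.53 (SE 1.28), and -2.10 without vector control 1. With all 6 libraries, DESeq2 and edgeR gave larger drops for Mmp13, -1.46 and -1.47. For Mmp10, which encodes stromelysin-2, every ATM KO library also lay between vector control 1 and the other controls. Mmp10 stood at 46.7, 256 and 266 in the controls, against 181, 136 and 129 with Atm knocked out. The log2 fold change of Mmp10 was -0.01 (SE 0.69), and -0.83 without vector control 1. For Mmp10, DESeq2 and edgeR gave -0.35 and -0.36 with all 6 libraries. Thus for both genes vector controls 2 and 3 were the highest libraries and vector control 1 the lowest.

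Mmp3, which encodes stromelysin-1, an enzyme that cuts many matrix proteins and activates other MMPs, had the highest mean level per kilobase of the 5. Mmp3 stood at 457, 1096 and 1096 in the controls, against 609, 1063 and 2684 with Atm knocked out. ATM KO 1 and 2 lay within the control range, and the log2 fold change of 0.55 (SE 0.61) became -0.03 without ATM KO 3. Mmp1a and Mmp1b encode the mouse collagenases related to human MMP1. They are close copies of each other, so their counts are uncertain, and Mmp1b shares 10.8% of its exon bases with Mmp12 on the opposite strand. Mmp1a was low, at 17.5, 34.8 and 26.3 in the controls, against 4.28, 9.55 and 17.9 with Atm knocked out. ATM KO 3 overlapped vector control 1 only by a margin of 17.9 to 17.5, and the log2 fold change was -1.37 (SE 0.60) with a range of -1.81 to -0.89 when 1 library was left out. Mmp1b went the other way, at 30.9 ± 16.3 in control against 39.4 ± 12.0 in knockout cells (log2 0.40, SE 0.49). None of the 5 passed a test (0 of 5 by limma, edgeR or DESeq2). All 5 carry the AP-1 motif and TATAAA.

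**Figure D3:**
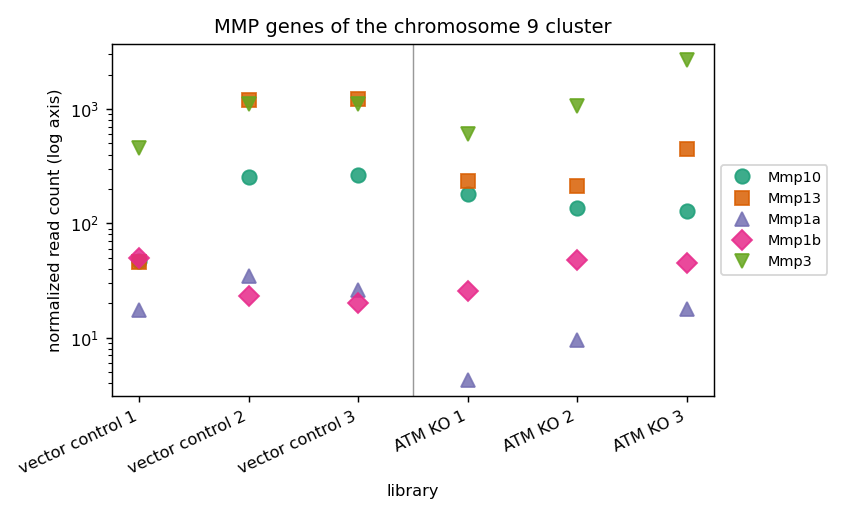
Normalized read count on a log y axis for the 5 MMP genes of the chromosome 9 cluster, with the 6 libraries on the x axis and 1 symbol per gene. Mmp13 is at 45.7 in vector control 1 but 1197 and 1219 in vector controls 2 and 3, with the ATM KO values of 213 to 444 between them.

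The remaining MMPs overlapped between groups. Mmp11, which encodes the furin-activated stromelysin-3, stood at 1440 ± 814 in control against 1458 ± 631 in knockout cells, and its log2 fold change of 0.16 (SE 0.61) was -0.49 without vector control 1. Mmp19 stood at 26.7 ± 11.2 and 48.7 ± 24.7 (log2 0.77, SE 0.54), and 22.3% of its exon bases lie opposite Tmem198b. Mmp23 was at 0, 1.93 and 12.6 in the controls, against 13.7, 10.6 and 19.2 with Atm knocked out, too low to be tested.

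The TIMPs were abundant and differed little between groups. Timp2 (chromosome 11, 118301069 to 118355740), which inhibits MMPs and takes part with MT1-MMP in the activation of pro-MMP2, had the highest mean level per kilobase of all members, at 4297 ± 29.7 in control against 4803 ± 417 in knockout cells. Timp2 values were 16624, 16855 and 16743 in the controls, against 19054, 16946 and 20137 with Atm knocked out. Each ATM KO value was above the controls, ATM KO 2 by 16946 to 16855. The ratio of the means was 1.12, and the log2 fold change was 0.16 (SE 0.12, limma adjusted p = 0.999). Timp1 (chromosome X, 20870166 to 20874735), which also binds pro-MMP9, stood at 1334, 990 and 1063 in the controls, against 1328, 1720 and 813 with Atm knocked out. ATM KO 3 was the lowest library and ATM KO 2 the highest, with a log2 fold change of 0.13 (SE 0.30), and -0.11 without ATM KO 2. Only these 2 TIMP genes are described, the others being not analysed here.

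Levels per kilobase allow enzymes and inhibitors to be set side by side. The summed level of the tested MMPs over that of the 2 TIMPs was 0.258, 1.08 and 1.06 in vector controls 1 to 3, against 1.20, 1.08 and 2.03 in ATM KO 1 to 3. ATM KO 2 was thus near vector controls 2 and 3 in this ratio, and vector control 1 was lowest. Mmp9 alone made up 19.8%, 51.0% and 51.3% of the summed MMP level in the controls, against 71.0%, 70.2% and 63.4% with Atm knocked out. The summed TIMP level kept between 5441 and 6386 in the 6 libraries, while the summed MMP level ran from 1486 in vector control 1 to 12364 in ATM KO 3. Mmp9 is 1 of the terms of these sums, and they were not tested.

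The abundant ADAM sheddases differed little between groups. Adam10 (chromosome 9, 70678997 to 70780229), which sheds Notch receptors and cadherins, had the highest mean level per kilobase of the ADAM genes, with 5850, 7268 and 7178 in the controls, against 7788, 6637 and 8450 with Atm knocked out. The groups overlapped through ATM KO 2, and the log2 fold change was 0.17 (SE 0.16), 0.07 without vector control 1. Adam17, which encodes the TNF-alpha converting enzyme that also sheds EGF receptor ligands, stood at 4276, 4838 and 4883 in the controls, against 4467, 4702 and 6147 with Atm knocked out. Only ATM KO 3 was above the controls, and the log2 fold change of 0.12 (SE 0.17) became -0.02 without it. Adam15 was the steadiest, at 1967 ± 54.2 and 1915 ± 152 (log2 -0.04, SE 0.14), although 20.6% of its exon bases lie opposite an antisense RNA.

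Adam9 (chromosome 8, 24949611 to 25016927), a widely expressed sheddase with a disintegrin domain that binds integrins, was the abundant ADAM on the lower side. Adam9 stood at 3943, 4707 and 4707 in the controls, against 3654, 3525 and 3925 with Atm knocked out. The gap was narrow, from 3925 in ATM KO 3 to 3943 in vector control 1. Its means were 4452 ± 441 and 3701 ± 204, a ratio of 0.831, with a log2 fold change of -0.26 (SE 0.14, limma adjusted p = 0.999) and a range of -0.35 to -0.22 when 1 library was left out.

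Adam11 (chromosome 11, 102761439 to 102780262), a member without a working protease site that is best known in neurons, differed between groups at a low level. Adam11 stood at 28.2, 33.9 and 36.8 in the controls, against 65.9, 84.9 and 60.1 with Atm knocked out. The lowest ATM KO value was above the highest control. The ratio of the means was 2.13 and the log2 fold change 1.06 (SE 0.32), between 0.92 and 1.17 when 1 library was left out. It did not pass limma (adjusted p = 0.999) or DESeq2 (adjusted p = 0.241). Adam22, its relative and a receptor for the neuronal protein LGI1, was erratic, at 46.7, 0.967 and 3.15 in the controls, against 192, 38.2 and 0 with Atm knocked out. Its log2 fold change of 1.43 (SE 2.12) ran from -0.22 without ATM KO 1 to 3.57 without ATM KO 3.

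Other ADAMs had values that split the libraries in other ways. Adam19 (meltrin beta), a sheddase of neuregulins, was highest in vector control 1, with 978, 312 and 322 in the controls, against 577, 261 and 57.6 with Atm knocked out. The range of each group covered part of the other, and the log2 fold change of -1.16 (SE 0.89) was -0.25 without ATM KO 3. Adam12 (meltrin alpha), at 1253, 486 and 424 in the controls, against 1172, 1247 and 667 with Atm knocked out, was above vector controls 2 and 3 in all ATM KO libraries. The log2 fold change of Adam12 was 0.64 (SE 0.47), and 1.13 without vector control 1. Adam8, a leukocyte and tumour sheddase, stood at 1681 ± 163 and 2562 ± 1230 (log2 0.49, SE 0.37), with 3810 in ATM KO 3 and a fold change of 0.14 without it. Adam3 and Adam1a, known from sperm, stayed at or under 20.2 and 12.8 in each library. Adam1a shares 63.65% of its exon bases with Gm42878 and 24.04% with Mapkapk5 on the same strand. How shared reads were counted is not stated, so its low value is uncertain.

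Among the ADAMTS genes the level was lower and the spread larger. Adamts1 (chromosome 16, 85793827 to 85803113), which cuts versican and aggrecan, had the highest mean level per kilobase over both groups, with 2234, 1523 and 1514 in the controls, against 1851, 2064 and 769 with Atm knocked out. ATM KO 3 was the low library, and the log2 fold change of -0.27 (SE 0.41) turned to 0.18 without it. Adamts4 (chromosome 1, 171250421 to 171260637), an aggrecanase, stood at 101, 759 and 811 in the controls, against 1084, 531 and 4029 with Atm knocked out. Its values spanned 39.8 times from vector control 1 to ATM KO 3, the libraries that also bounded Mmp9. The log2 fold change of Adamts4 was 1.73 (SE 1.04), 0.75 without vector control 1. In ATM KO cells Adamts4 was above Adamts1 per kilobase, at 391 against 294. Adamtsl4, a protein of fibrillin microfibrils with no protease domain, had the most negative fold change of the group. Adamtsl4 stood at 330, 1490 and 1569 in the controls, against 1252, 528 and 594 with Atm knocked out. All ATM KO libraries lay between vector control 1 and the other controls, as for Mmp13 and Mmp10, and the log2 fold change of -0.32 (SE 0.67) was -1.06 without vector control 1.

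Adamts14, a procollagen N-proteinase, stood at 290 ± 162 and 612 ± 517 (log2 0.97, SE 0.75), with 1204 in ATM KO 3. The fold change of Adamts14 was 0.31 without that library and 0.35 without vector control 1. Adamts8 was at 195, 35.8 and 39.9 in the controls, against 215, 210 and 124 with Atm knocked out, so that vector control 1 lay inside the ATM KO range. Its log2 fold change was 1.42 (SE 0.69), and 2.20 without vector control 1, and 10.6% of its exon bases lie opposite an antisense RNA. Adamts7, which degrades the cartilage matrix protein COMP, stood at 360 ± 218 and 404 ± 163, and Adamtsl3 at 605 ± 372 and 628 ± 300. The fold changes of both turned negative without vector control 1, to -0.33 and -0.49. Adamts6 and Adamts10, linked to fibrillin microfibrils, overlapped between groups, with log2 fold changes of 0.26 for Adamts6 and -0.06 for Adamts10, as did Adamtsl5 (0.25). With 1 library left out these ran from -0.0055 to 0.43 for Adamts6, from -0.16 to 0.06 for Adamts10 and from -0.07 to 0.74 for Adamtsl5. Adamts9, a versicanase, was at 8.56 or less in every library.

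Read by library rather than by group, the members showed a marked low in vector control 1. That library held the lowest of the 6 values in 18 of 32 members (56.2%) and in 31.3% of all tested genes. The low was not particular to the members. Among the gene lists described below, it was lowest in 76.5% of matrix and 63.2% of AP-1 and ETS genes. For partners it was lowest in 61.1%, for ADAM substrates in 58.6%, and for TspanC8 and iRhom genes in 50%. For MMPs it was lowest in 8 of 11, and for ADAMTS and ADAMTSL genes in 6 of 10. The median deviation from each gene's mean was -1.12 on the log2 scale for MMPs in vector control 1 and -0.98 for ADAMTS and ADAMTSL genes, but -0.04 for ADAMs. In ATM KO 2, the library most like vector control 1, the medians were -0.30, -0.24 and -0.11. ATM KO 3 held the highest value in 15 of 32 members (46.9%), against 25.3% of all tested genes. It was highest in 63.2% of AP-1 and ETS, 58.8% of matrix, 55.6% of partner and 44.8% of ADAM substrate genes. The largest deficits in vector control 1 against the mean of vector controls 2 and 3 were 26.4 times for Mmp13, 10.2 for Mmp9 and 7.76 for Adamts4. Adam22, Adamts8, Adam19, Adam12, Mmp1b, Mmp24, Adamts1 and Timp1 were instead higher there than in both other controls.

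**Figure D4:**
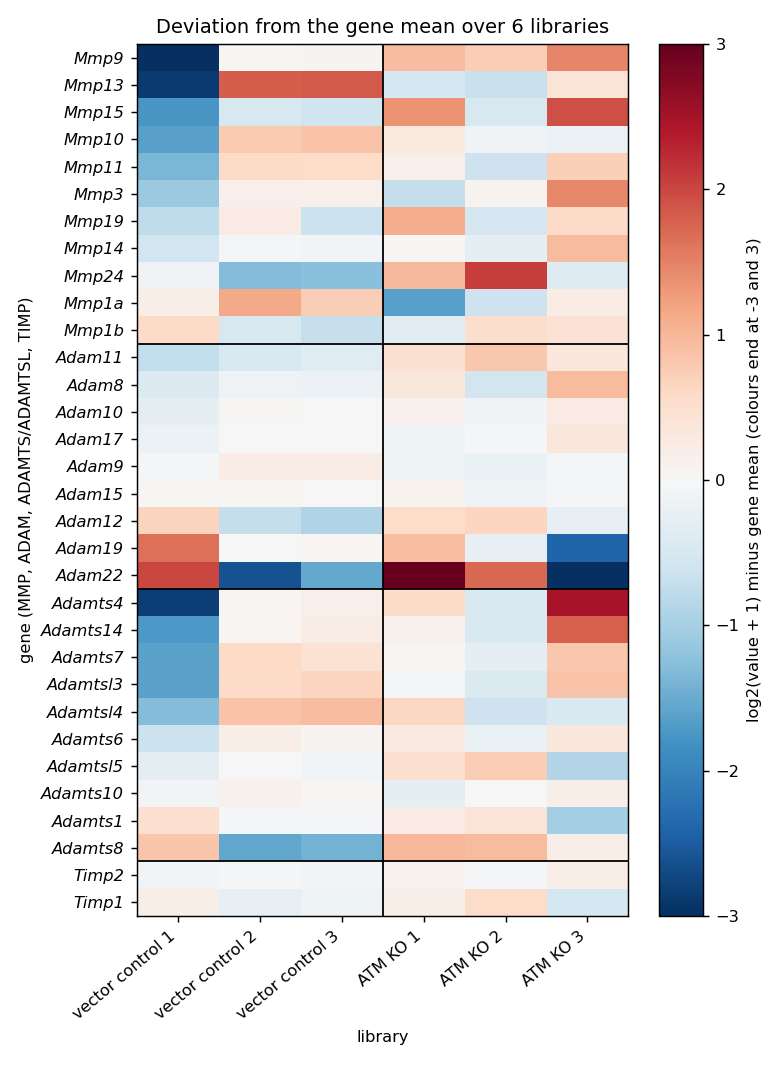
Colour gives log2(value + 1) minus the gene's mean over the 6 libraries, with libraries on the x axis and the 32 tested members on the y axis by family. The column of vector control 1 is blue for most MMP, ADAMTS and ADAMTSL genes, at a median of -1.12 for MMPs, while the rows of Adam10, Adam17, Adam9, Adam15 and Timp2 stay pale throughout.

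With vector control 1 left out, 10 of 32 members had an unadjusted p under 0.05, against 14.6% of all tested genes, and still 0 passed after adjustment. These 10 were Adam11, Adam12, Adamts8, Mmp24 and Mmp9, which were higher in ATM KO cells, and Adam9, Adamtsl4, Mmp10, Mmp13 and Mmp1a, which were lower. The median of the members was then 0.14 with 19 positive and 13 negative, and that of the chromosome 9 genes -0.83. The comparison then rests on the 2 controls that were nearly alike, whose spread is small.

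Genes that act with the metalloproteinases were read from the same fit, and 0 of them passed limma. Of 18 listed activators, inhibitors and partners, 11 were positive and 7 negative (median 0.13, and -0.13 without vector control 1). In 4 of these 18 every ATM KO library was above every control, against 5.7% of all tested genes. Plau, the urokinase that starts the plasmin cascade upstream of several pro-MMPs, stood at 5653 ± 207 and 9831 ± 3966 (log2 0.73, SE 0.27, and as low as 0.42 with 1 library left out). Lcn2, the lipocalin that forms a complex with MMP9 protein, was at 939, 3522 and 3721 in the controls, against 4939, 7021 and 13076 with Atm knocked out, and like Mmp9 was lowest in vector control 1 and highest in ATM KO 3. The log2 fold change of Lcn2 was 1.73 (SE 0.62), 1.09 without vector control 1. Sdc1, a syndecan that is shed by metalloproteinases, was also among them (log2 0.76, SE 0.23). Reck, a membrane inhibitor of MMPs, overlapped, at 147 ± 90.7 and 111 ± 39.7, as did the pro-protein convertase Furin, at 5549 ± 811 and 6220 ± 1486.

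The partners that carry ADAM10 and ADAM17 through the secretory pathway, TspanC8 tetraspanins and iRhoms with Frmd8, had 3 positive and 5 negative of 8 tested members and a median of -0.14. In none of the 8 (0) were the groups apart, against 11.2% of all tested genes. Among 29 tested ADAM substrates, 18 were positive and 11 negative, with a median of 0.03, and -0.17 without vector control 1. Jag1, the Notch ligand, was the 1 DESeq2 call of the 29 (adjusted p = 0.0289), where 0.692% of all genes were called. It stood at 313, 447 and 549 in the controls, against 1164, 764 and 1701 with Atm knocked out. Its log2 fold change was 1.43 (SE 0.36), with all ATM KO libraries above the controls, and limma did not call it (adjusted p = 0.999). Il6st (log2 0.50, SE 0.17) and Vcam1 (log2 1.09, SE 0.47, and as low as 0.59 with 1 library left out) were also above in every ATM KO library. The EGF receptor ligand Btc was below in every one, at 445 ± 126 and 196 ± 92.0 (log2 -1.23, SE 0.41). The groups were apart in 13.8% of the tested substrates, near the 11.2% of all tested genes.

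Matrix proteins that these enzymes cut had 13 positive and 4 negative of 17 tested genes and a median of 0.23, which was -0.21 without vector control 1. Nid1, a basement membrane linker, was at 8.76, 49.3 and 45.2 in the controls, against 160, 133 and 148 with Atm knocked out (log2 2.38, SE 0.66, DESeq2 adjusted p = 0.102). Col7a1, the anchoring fibril collagen, stood at 2894 ± 1313 and 6448 ± 2018 (log2 1.24, SE 0.44, and 0.77 without vector control 1). The groups were apart in 11.8% of the 17, near the 11.2% of all tested genes. The more abundant type IV collagen genes Col4a1 (log2 -0.24, SE 0.38) and Col4a2 (log2 -0.39, SE 0.30) overlapped between groups. With 1 library left out they ran from -0.67 to -0.03 and from -0.74 to -0.20. Of 19 AP-1 and ETS factor genes, 11 were positive and 8 negative, with a median of 0.16. Jun was at 786, 3535 and 3734 in the controls, against 2653, 1787 and 6153 with Atm knocked out, lowest in vector control 1 and highest in ATM KO 3. Fos had the same order of libraries, from 43.8 in vector control 1 to 389 in ATM KO 3, and overlapped between groups. The log2 fold changes of Jun and Fos, 0.50 and 0.34, turned to -0.24 and -0.50 without vector control 1. Jund (log2 0.16, SE 0.12) and Elk1 (log2 0.49, SE 0.17) were above the controls in all ATM KO libraries. The groups were apart in 10.5% of these 19 genes, near the 11.2% of all tested genes. The 4 tested astacin and neprilysin family genes had a median of 0.20 with no call (0 of 4 by limma, edgeR or DESeq2).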

How the data were processed

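The deposited values are a normalized signal for each gene in each of 6 RNA-seq libraries. Within a library 100% of them are whole multiples of a single step (tolerance 0.01 reads), so they were taken as gene read counts scaled by a library factor, and the reads were recovered. Per the submitters' processing notes the tools included STAR and HTSeq, beside Trim Galore, cutadapt, SAMtools and DESeq2, with builds GRCm38 and mm9 and no roles or versions. Samples were grouped by title. Genes with a mean of at least 10 were tested on log2(value + 1) with limma 3.58.1 in R 4.3.3 (mean-variance trend, 2-sided, Benjamini-Hochberg over all tested genes, threshold 0.05). edgeR 4.0.16 and DESeq2 1.42.0 were run on the recovered reads. Positions and exon lengths came from GENCODE M21 (GRCm38), which holds 98.8% of the listed IDs and all 36 members. Scripts were tested on simulated data.

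Members and gene lists were chosen with earlier results of these data known. Values in all libraries are given for members that passed a test, had groups that do not overlap, were among the 3 highest per kilobase or had the extreme fold changes of their family. Others were chosen after their values were seen. Listed partners were named where they passed or did not overlap, up to 4 per list. Reck, Furin, Jun, Fos, Col4a1, Col4a2, Csf1r, Cd68 and Krt14 were added after their values were seen. The values of 1 listed partner are not reported here.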

Additional observations from a re-analysis of the deposited data

How the results depend on the processing

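No member passed an adjusted p of 0.05 in any of the 13 alternatives (0 in each). Over all tested genes DESeq2 called 84 and limma and edgeR 0, with 505 genes (limma) and 522 (edgeR) at an unadjusted p under 0.05; the cause of this difference was not tested. The members' median log2 fold change stayed positive, from 0.12 without ATM KO 3 to 0.45 without ATM KO 2, and was 0.26 with the replicate block. Deviations of same-numbered libraries correlated at -0.02, -0.58 and 0.53, and the block left the count of calls at 0. Whether the replicate numbers pair the libraries cannot be decided from these correlations, because vector controls 2 and 3 gave nearly the same ones. Theirs were 0.01 and 0.03 with ATM KO 1, -0.58 and -0.59 with ATM KO 2, and 0.53 and 0.53 with ATM KO 3. The sign of the fold change turned with 1 library left out in 15 of 32 tested members, among them Mmp10 (-0.83 to 0.42), Mmp13 (-2.10 to 0.25), Mmp11 (-0.49 to 0.50), Adamts7 (-0.33 to 0.77), Adamtsl3 (-0.49 to 0.64) and Adam15 (-0.10 to 0.01). Each alternative was fitted over all genes that met its filter. The tally of fold changes below covers the 15 members chosen by the naming rule. Of these, Adam22 and Mmp1a fell below the minimum mean of 50 and have no value there. The changes of the filter on low values and the replicate block cannot alter a gene's fold change, so their values kept the sign by design. With these included, 186 of 193 values kept their sign. The others turned when 1 library was left out, with ranges of -0.023 to 0.21 for Adam17, -0.22 to 3.57 for Adam22, -0.53 to 0.18 for Adamts1, -1.06 to 0.063 for Adamtsl4, -0.025 to 1.04 for Mmp3 and -0.11 to 0.43 for Timp1. The low counts of Mmp1a, Mmp1b, Adam22 and Mmp19 limit their precision.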
